A study of Homo sapiens with 18 samples.

Results

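H3K9me2 peaks were compared between the LNCaP line that expresses K451R EHMT1 and the line that expresses WT EHMT1. All peaks of both lists were taken, 1256 from the K451R line and 784 from the WT line, which makes 2040 of the 22458 peaks in the 9 lists of the series. A peak was called shared when it overlapped a peak of the other line by at least 1 bp, and K451R-only or WT-only otherwise. By this rule 676 K451R-line peaks were shared and 580 were K451R-only, while 692 WT-line peaks were shared and 92 were WT-only.

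LNCaP is a human cell line from prostate cancer that responds to androgen. Each line carried a lentiviral, tetracycline-inducible construct for V5-tagged EHMT1, was selected as a stable population that is not stated to be a clone, and was treated with doxycycline at 0.5 µg/ml for 2 days. Lines with EHMT1-WT, EHMT1-K450R, EHMT1-K451R and EHMT1-K450RK451R (the double mutant) were precipitated with antibodies to V5 and to H3K9me2, and parental LNCaP cells with an antibody to EHMT1. All of them kept their own EHMT1 gene, so that the mutant protein was added to the endogenous protein. The comparison asks whether the H3K9me2 landscape differs when arginine replaces K451 of EHMT1. Each group had 2 replicates and a single deposited peak list, and whether a list came from both replicates or from 1 of them is not known. No spread between replicates can therefore be given for any value below, no difference between the lines was tested, and the 95% Wilson intervals beside shares cover counting error only.

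EHMT1, also called GLP, forms a complex with EHMT2 (G9a) that places mono- and dimethyl marks on lysine 9 of histone H3. H3K9me2 usually spreads over broad, silent domains, is read by chromodomain proteins and by the ankyrin repeats of EHMT1 and EHMT2 themselves, and lies close to the H3K9me3 chromatin that packs the satellite repeats around centromeres. The deposited lists hold narrow peaks, with a median width of 142.5 bp in the K451R list and 143.0 bp in the WT list, and they cover 229 kb and 142 kb in all.

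Sequences under strong line-only peaks are shown as examples, picked by rank, and do not stand for the lists as a whole. The summit with the 100 bases on either side of it, from the GRCh37 forward strand, is printed for the strongest K451R-only peak and for the 2 strongest WT-only peaks on chromosomes 1 to 22 and X. In the chromosome 10 window, capitals mark GGAAT, the reverse complement of ATTCC, which is the pentamer of human satellites II and III. In the PCBD2 window they mark every stretch of 16 bases that also occurs in the mitochondrial genome. The CDC27 window holds neither mark.
K451R-only, CDC27 intron, chr17:45213860-45214060: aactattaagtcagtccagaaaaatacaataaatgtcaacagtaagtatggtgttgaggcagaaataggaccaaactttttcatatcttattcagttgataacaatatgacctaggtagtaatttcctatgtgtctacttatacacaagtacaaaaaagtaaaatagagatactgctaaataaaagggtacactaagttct
WT-only, intergenic, chr10:42386902-42387102: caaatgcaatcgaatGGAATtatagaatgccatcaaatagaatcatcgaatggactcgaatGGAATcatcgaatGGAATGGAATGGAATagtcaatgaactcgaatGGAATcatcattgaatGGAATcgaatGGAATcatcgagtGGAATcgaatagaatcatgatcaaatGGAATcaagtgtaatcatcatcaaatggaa
WT-only, PCBD2 intron, chr5:134260163-134260363: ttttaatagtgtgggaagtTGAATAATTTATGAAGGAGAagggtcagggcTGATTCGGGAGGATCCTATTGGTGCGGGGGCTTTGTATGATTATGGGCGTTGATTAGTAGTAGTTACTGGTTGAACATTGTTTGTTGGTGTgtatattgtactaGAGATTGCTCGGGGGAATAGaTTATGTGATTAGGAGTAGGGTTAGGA
The chromosome 10 window carried 10 copies of the satellite pentamer. In the PCBD2 window 157 bases lay in stretches shared with the mitochondrial genome.

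The K451R list held 1.60 times as many H3K9me2 peaks as the WT list, and this came with a deeper library. From the background of each list, 27.6 M reads (M, mega) were estimated behind the K451R list and 17.9 M behind the WT list. The K450R H3K9me2 list held 815 peaks from an estimated 14.0 M reads and the K450RK451R H3K9me2 list 907 from 8.79 M. Each line had its own depth, so depth and line cannot be told apart. Of the K451R-line peaks 53.8% (51.1 to 56.6) overlapped a WT-line peak, and of the WT-line peaks 88.3% (85.8 to 90.3) overlapped a K451R-line peak. When both lists were merged into 1345 regions, 673 held peaks of both lines, 580 of the K451R line only and 92 of the WT line only.

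K451R-only peaks were the weaker peaks of their list. Fold enrichment is the pileup of reads at the summit over the local background after 1 read has been added to each. The median fold of K451R-only peaks was 5.66, with an interquartile range of 4.20 to 6.83, against 7.07 (4.46 to 9.87) for shared peaks of the same list. Without the added read the medians were 7.32 and 8.62. The median pileup was 23 reads in K451R-only peaks and 56 reads in shared peaks. WT-only peaks likewise had a median fold of 5.81, against 7.29 for the shared peaks of the WT list. All 100 K451R-line peaks with the highest −log10 q were shared, as were 94.5% of ranks 101 to 300, 73.3% of ranks 301 to 600, 37.7% of ranks 601 to 900 and 15.2% of ranks 901 to 1256. In the WT list all of the top 100 were shared and 66.3% of ranks 601 to 784. The strongest peaks were therefore common to both lines, and the line-only peaks gathered at the low end of each list.

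**Figure D1:**
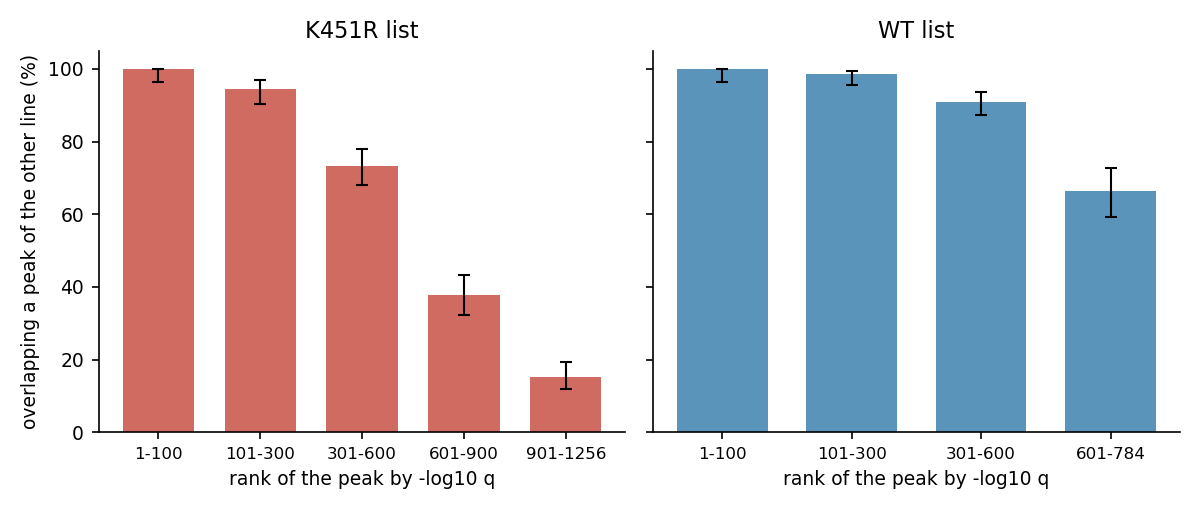
Share of H3K9me2 peaks (y axis, %) that overlapped a peak of the other line, by the rank of the peak's −log10 q within its list (x axis), for the K451R list (left) and the WT list (right); bars show the share and lines the 95% Wilson interval. The share was 100% in the top 100 of both lists and 15.2% in the last K451R ranks.

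Depth was examined by scaling the pileup and background of each K451R-line peak by 0.649, the ratio of the reads estimated for the WT and K451R lists. After scaling, 522 of 580 K451R-only peaks (90.0%, 87.3 to 92.2) and 671 of 676 shared peaks (99.3%, 98.3 to 99.7) still reached a −log10 p of 5.99, the lowest in the WT list. The median scaled −log10 p was 9.07 in K451R-only peaks and 17.9 in shared peaks. Scaling takes each pileup at its observed value, and the pileup of a peak is the highest value in its neighbourhood.

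K451R-only peaks often lay beside WT-line peaks. Of the 580 peaks, 57 lay within 250 bp of a WT-line peak, 136 (23.4%) within 1 kb and 315 (54.3%) within 10 kb, and the median distance was 7.05 kb. Among the 92 WT-only peaks 35 (38.0%) lay within 1 kb of a K451R-line peak. At the edge of the rule, the shared peak with the shortest overlap, 6 bp, was at chrY:28817518-28817737 with a fold of 6.02, and the nearest peak that missed it was a K451R-only peak in a CHL1 intron at chr3:304035-304176, 25 bp from a WT-line peak, with a fold of 5.79. CHL1 encodes a neural cell adhesion molecule. Of the 676 shared peaks 675 overlapped by 50 bp or more. When the overlap had to span 50% of both peaks, 622 peaks of each line were shared, 634 were K451R-only and 162 were WT-only.

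Shared peaks had nearly the same fold in both lines. In the 655 pairs in which a single K451R-line peak met a single WT-line peak, the summits lay a median of 6 bp apart and the median fold was 7.10 in the K451R line and 7.46 in the WT line. The median K451R over WT ratio of fold was 0.925 (0.910 to 0.939, the 95% interval of a median over pairs), with 223 pairs higher and 431 lower in the K451R line. By fold 20 pairs had a ratio above 1.5 and 6 a ratio below its inverse. Which tail held more pairs depended on the read added to pileup and background. Without it, 5 pairs were above 1.5 and 47 below the inverse, 120 pairs were higher in the K451R line and the median ratio was 0.856. Per M estimated reads the median ratio of pileup was 0.921, with 23 pairs above and 25 below these limits. Pairs with a geometric mean pileup of at least 100 reads had a median fold ratio of 0.881 (n = 111), and pairs below 25 reads one of 1.02 (n = 140). The ratio also differed by place. Within 1 Mb of an assembly gap its median was 0.909 (0.897 to 0.925, n = 558), with 165 pairs higher in the K451R line. Farther from gaps it was 1.07 (0.989 to 1.14, n = 96), with 57 pairs higher. The lower K451R fold was thus not seen away from gaps, and the difference was not tested. Pileup cannot pass 200 when each position and strand holds 1 read of 100 bp after extension, and 53 K451R-line peaks and 21 WT-line peaks were at 150 or more. The part of this limit in the ratio was not tested.

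**Figure D2:**
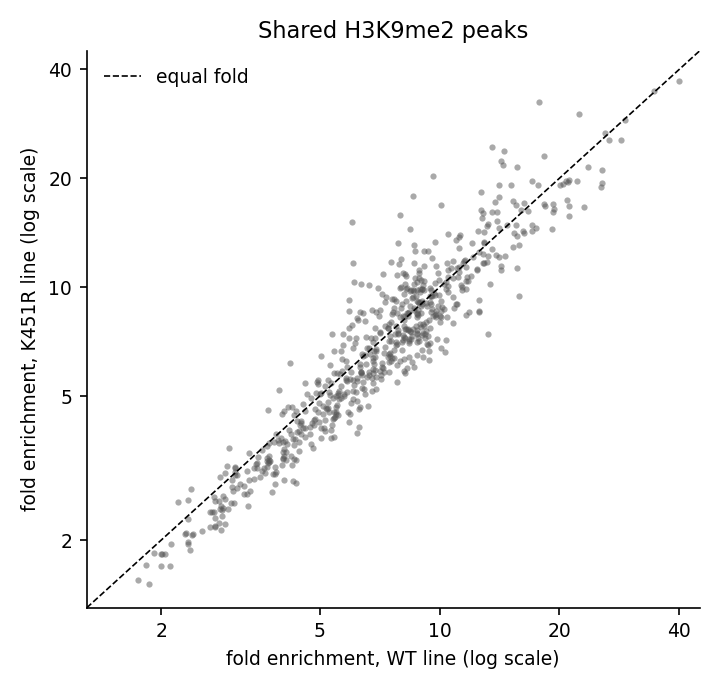
Fold enrichment of the 655 shared H3K9me2 peaks in the WT line (x axis) and the K451R line (y axis), both on log scales; each point is a pair of overlapping peaks and the dashed line marks equal fold. The points follow the line, with a median K451R over WT ratio of 0.925.

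By −log10 q, the 5 strongest shared peaks on chromosomes 1 to 22 and X lay in SENP5 and on chromosome 9. The first, in an intron of SENP5, which encodes a SUMO protease, had a fold of 37.04 in the K451R line and 39.8 in the WT line. Its fold ranged from 35.8 to 45.2 over the other lists, so it was high with every antibody. The next 4 lay on chromosome 9 within 1 Mb of an assembly gap, at chr9:69710701-69711370, chr9:66970971-66971463, chr9:44070635-44070830 and chr9:66833758-66834016, with K451R-line folds of 19.7, 19.2, 34.8 and 16.8 and WT-line folds of 22.2, 20.1, 34.5 and 18.4. In 4 of the 5 the WT-line fold was the higher, and each of the 5 was called in all 9 lists. They were chosen by −log10 q, and other shared peaks had a higher fold than some of them. The summit windows with folds of 19.7 and 19.2 held the CENP-B box, the binding site of the centromere protein CENP-B. The SENP5 window held both the satellite pentamer and an Alu-type string. Of 151 stretches of read length, 115 were unique in the genome in the SENP5 window and 0 in both CENP-B box windows. In the windows with folds of 34.8 and 16.8, 53 and 50 were unique. Reads from the other stretches cannot be placed with certainty.

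Of the 6 shared peaks with the most extreme fold ratios on chromosomes 1 to 22 and X, 3 in each direction, 1 was intergenic. PID1, an adaptor in insulin signalling, had a fold of 15.1 in the K451R line and 6.01 in the WT line at chr2:230045489-230045676. DCC, the netrin receptor, had 20.3 and 9.62 at chr18:50319091-50319247, in a window with both the satellite pentamer and an Alu-type string. CDC27, a subunit of the anaphase-promoting complex, had 17.8 and 8.56 in coding exon 3. In the opposite direction, VPS13B, a lipid-transfer protein gene, had a fold of 7.42 in the K451R line and 13.2 in the WT line. A lncRNA exon at chr13:110076490-110076677 had 9.48 and 15.8, and an intergenic peak at chr17:22261526-22261654 had 3.96 and 6.21. These 6 peaks were chosen for their ratios, which are given as a description.

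H3K9me2 peaks of both lines crowded around the gaps of the assembly. Gaps were counted wherever they lay on a chromosome, not only at centromeres. Within 1 Mb of a gap of at least 10 kb lay 75.5% (71.9 to 78.8) of K451R-only peaks, 70.1% (59.8 to 78.7) of nuclear WT-only peaks and 85.6% (82.8 to 88.1) of nuclear shared peaks of the K451R list, against 11.05% of 1422189 windows spaced evenly over the genome. The 10 bins of 1 Mb with the most K451R-only peaks held 181 of the 580 (31.2%), and also 223 of the nuclear shared K451R-line peaks (33.1%). The bin at 49 to 50 Mb of chromosome 4 held 36 K451R-only, 31 shared and 5 WT-only peaks. The bin at 13 to 14 Mb of chromosome Y held 29 K451R-only peaks beside 42 shared, and that at 42 to 43 Mb of chromosome 10 held 18 beside 49. Most K451R-only peaks thus lay in bins that also held WT-line peaks, and 143 of them (24.7%) fell in bins without a WT-line peak. By number of bins the order was the opposite, since 117 of the 215 bins with a K451R-only peak held no WT-line peak.

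Every nuclear chromosome had more peaks in the K451R list than in the WT list. The ratio ran from 1.17 on chromosome 15, with 7 and 6 peaks, to 2.50 on chromosome 13, with 10 and 4. Among chromosomes with at least 50 WT-line peaks it was 2.02 on chromosome 4, 1.81 on Y, 1.65 on 2, 1.61 on 16 and 1.41 on 10. Chromosome 4 had 60 K451R-only peaks of 101 (59.4%, 49.7 to 68.5), and chromosome 10 had 37 of 100 (37%, 28.2 to 46.8). These were the highest and the lowest share of the chromosomes just listed, and the difference was not tested. The intervals count peaks as independent, but 36 of the chromosome 4 peaks lay in a single bin of 1 Mb, as did 18 on chromosome 10. Chromosome Y was the densest, with 5.26 peaks per sequenced Mb in the K451R list against 0.439 over all nuclear chromosomes.

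**Figure D3:**
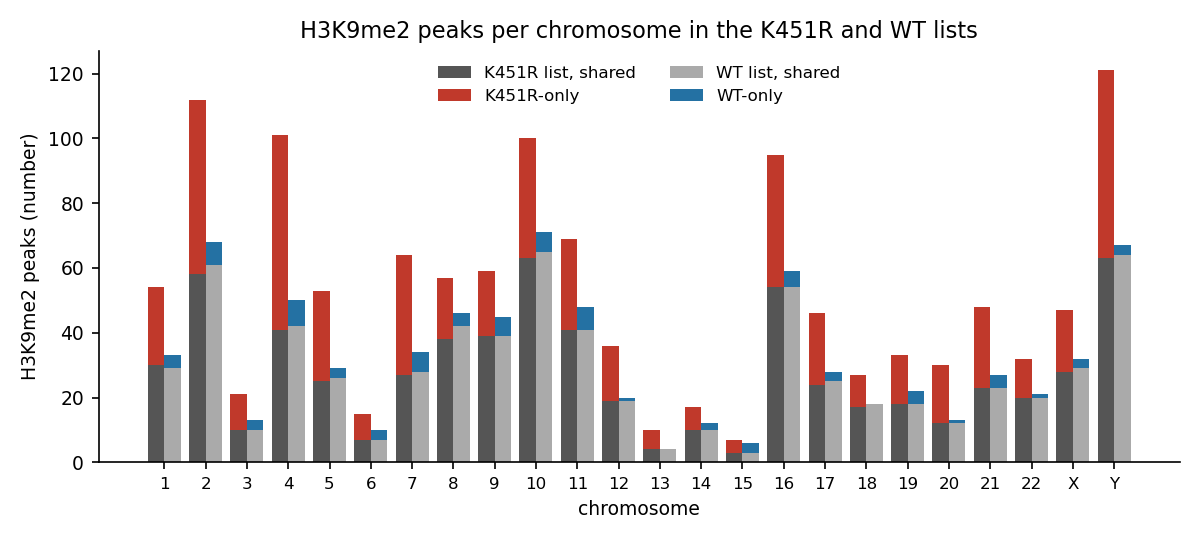
Number of H3K9me2 peaks (y axis) on each nuclear chromosome (x axis); the left bar of each chromosome is the K451R list, with shared peaks in dark grey and K451R-only peaks in red, and the right bar is the WT list, with shared peaks in light grey and WT-only peaks in blue. The left bar is taller on every chromosome, and on chromosome 4 the K451R-only peaks, 60 of 101, outnumber the shared peaks.

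The mitochondrial genome held more peaks in the WT list, 8, than in the K451R list, 2. By fold the order was the opposite, since the 2 K451R-line peaks, which covered 1144 bp, had folds of 3.58 and 4.20 and the 8 WT-line peaks, which covered 1990 bp, had folds of 1.92 to 2.96. Nuclear windows that resemble mitochondrial DNA were more frequent among WT-only than among K451R-only peaks. A window was called mitochondrial-type when at least 10 of its 16-base stretches also occur in the mitochondrial sequence, a feature examined after the WT-only peaks had been seen. It applied to 12 of 87 nuclear WT-only peaks (13.8%, 8.07 to 22.6), to 1 of 580 K451R-only peaks (0.172%, 0.0304 to 0.970), to 6 of 674 shared K451R-line peaks and to 0.00492% of the genome windows. With the mitochondrial peaks themselves, 17 of the 92 WT-only peaks were of this kind. They included peaks in PCBD2 (a pterin dehydratase gene, at chr5:134260192-134260319 and chr5:134262705-134262833, with folds of 8.68 and 7.99), in mitochondrial pseudogenes at the tip of chromosome 1 and between genes. Of the 186 stretches of 16 bases in a window, 74 to 186 matched in these nuclear WT-only peaks. Of the 151 stretches of read length in a window, 0 to 151 were unique in the genome, with 110 and 151 in the PCBD2 windows, so that the certainty of read placement varied between these peaks. The shared VPS13B peak and the shared chromosome 13 lncRNA peak, which were lower in the K451R line, were of the same kind.

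WT-only peaks of mitochondrial sequence were not particular to the WT line in the other lists. All 17 overlapped a K451R V5 peak and an EHMT1 peak, 15 a WT V5 peak and 16 a K450R V5 peak, but only 6 a K450R H3K9me2 peak and 5 a K450RK451R H3K9me2 peak. The highest mitochondrial pileup per M estimated reads was 2.68 in the K451R H3K9me2 list, 5.42 in the WT, 5.44 in the K450R and 7.28 in the K450RK451R H3K9me2 list, and 6.57 to 12.4 in the V5 lists. The K451R H3K9me2 list was the lowest of the 9 by this measure, whereas its highest mitochondrial fold, 4.20, was above that of each of the other 8 lists. The part of mitochondrial reads in these calls was not tested.

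Satellite repeats were as frequent in line-only as in shared peaks, while the centromeric box was not. At least 4 copies of the pentamer ATTCC or GGAAT were found in 25.5% (22.1 to 29.2) of K451R-only windows, 25.4% (22.2 to 28.8) of shared K451R-line windows and 24.1% (16.4 to 34.1) of WT-only windows, against 0.0816% of genome windows. The CENP-B box, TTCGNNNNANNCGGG or its reverse complement CCCGNNTNNNNCGAA, by which CENP-B binds alpha satellite, was found in 5.34% (3.79 to 7.49) of K451R-only windows, in 13.2% (10.9 to 15.97) of shared K451R-line windows and in 0.0134% of genome windows. Alu-type strings (GTAATCCCA, GGCTGAGGC, GAGGTTGCA or ATTAGCCGG on either strand) were found in 3.45% of K451R-only and 2.97% of shared K451R-line windows, below the 9.52% of genome windows. At least 3 copies of the telomere repeat TTAGGG or CCCTAA were found in 1.90% and 1.48% of these windows, and no WT-only window of 87 held either feature, a count of 0 that still allows 3.45%. In 13.5% of K451R-only and 16.2% of shared windows no stretch of 51 bases, the read length, was unique in the genome, so that reads there cannot be placed with certainty.

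**Figure D4:**
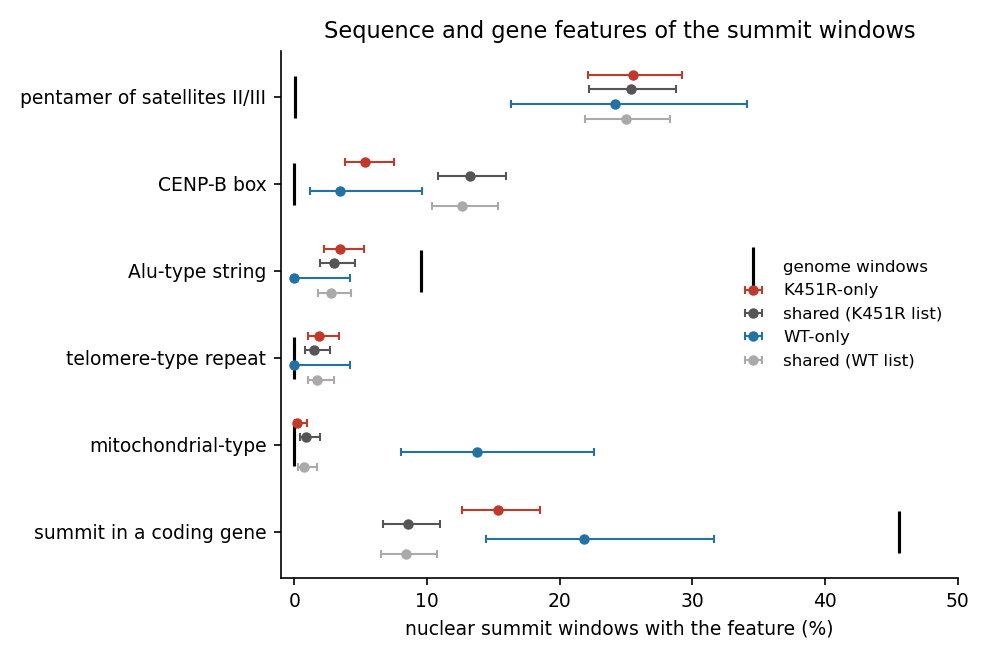
Share of nuclear summit windows (x axis, %) with each sequence or gene feature (y axis), by class of H3K9me2 peak; points are shares, horizontal lines 95% Wilson intervals, and the black vertical marks are the share of 1422189 evenly spaced genome windows. The pentamer share is 24.1% to 25.5% in every class, the CENP-B box is at 5.34% in K451R-only and 13.2% in shared peaks of the K451R list, and the mitochondrial-type share is highest in WT-only peaks, at 13.8%.

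Few peaks of either line lay in protein-coding genes. A summit fell in a coding gene in 15.3% (12.6 to 18.5) of K451R-only peaks, 21.8% (14.5 to 31.6) of nuclear WT-only peaks and 8.61% (6.72 to 10.96) of nuclear shared K451R-line peaks, against 45.6% of genome windows. Introns held 11.2% of K451R-only summits and exons 1.21%. Within 1 kb of a transcription start lay 11 K451R-only summits (1.90%), 2 WT-only summits and 7 shared summits of the K451R list, and 2.52% of genome windows did. Within 1 Mb of a gap 24 of 438 K451R-only peaks (5.48%) and 23 of 577 shared K451R-line peaks (3.99%) lay in coding genes. Away from gaps the gene share was higher, with 65 of 142 K451R-only peaks (45.8%) and 35 of 97 shared K451R-line peaks (36.1%) in coding genes. The gene share of K451R-only peaks was thus the higher in both places, but these shares carry no interval and the difference was not tested. Away from gaps the K451R-only share was close to the 45.6% of genome windows, which were not split by gaps.

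Of 20163 protein-coding genes, 123 (0.61%) overlapped a K451R-line peak and 65 (0.322%) a WT-line peak, and 51 genes were in both sets. K451R-only peaks touched 83 genes (0.412%) and WT-only peaks 17 (0.0843%). Of the 72 genes with K451R-line but no WT-line peaks 68 held a single peak, so that the gene calls rest mostly on isolated peaks. Among 29 genes of the H3K9 methylation machinery (writers, readers and erasers), only EHMT1 held a peak, in both lines, a share of 3.45% for each list. Of 541 zinc finger genes, which form clusters rich in H3K9 methylation in many cell types, 2 (0.370%) held a K451R-line peak, ZNF595 and ZNF717, and none a WT-line peak, a count of 0 that still allows 0.555%. None of 399 olfactory receptor genes and none of 66 protocadherin genes held a peak of either line, counts of 0 that still allow 0.752% and 4.55%, both above the share of all genes. Of 22 genes of the pericentromeric ankyrin families 1 held peaks in both lines, ANKRD30BL. These gene lists were chosen with earlier results of the data known.

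EHMT1 itself held a shared H3K9me2 peak in an intron, at chr9:140610523-140611021 in the K451R list. Its fold was 16.3 with K451R, 12.7 with WT, 12.5 with K450R and 16.5 with K450RK451R. By V5 the fold there was 7.17 with K451R, 5.05 with WT and 9.09 in the double mutant, with no peak for K450R, and by EHMT1 it was 11.8. The peak was thus called with every antibody. The expressed construct was an open reading frame. Of 151 stretches of read length in the summit window, 40 were unique for the K451R list and 42 for the WT list. Reads from the other stretches cannot be placed with certainty. The source of the reads at this peak was not tested.

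CDC27 held the K451R-only peak with the highest −log10 q, and further K451R-only peaks lay in this gene and in its pseudogene. The peak in the CDC27 intron printed above, chr17:45213872-45214050, had a −log10 q of 42.1 and a fold of 12.6 from a pileup of 57 reads over a background of 3.62. It was absent from the WT H3K9me2 and WT V5 lists, and its fold was 7.05 and 7.14 in the K450R and K450RK451R H3K9me2 lists, 10.4 in the K451R V5 list, 8.96 and 11.1 in the K450R and K450RK451R V5 lists and 12.4 in the EHMT1 list. This peak was therefore called in 7 of the 9 lists, and the WT line was the line without it. CDC27 held 4 K451R-only and 5 shared K451R-line peaks. The other K451R-only peaks there were at chr17:45216142-45216269 in coding exon 13 (fold 4.94), at chr17:45258891-45259030 in coding exon 2 (11.6) and at chr17:45266474-45266619 in exon 1 (13.2). The pseudogene CDC27P1 held a K451R-only peak of fold 5.94 at chr2:133020077-133020209, next to ANKRD30BL, the gene with the most K451R-only peaks, 5 beside 5 shared. The summits of these 5 K451R-only peaks lay within the annotated bounds of ANKRD30BL but outside its canonical transcript. In the CDC27 windows 115 to 151 of 151 stretches of 51 bases were unique, and in CDC27P1 99 were, and reads from the other stretches cannot be placed with certainty.

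UBTD1, which encodes a ubiquitin-domain protein, held the K451R-only peak with the highest fold, 15.6, and the −log10 q there, 36.3, came after that of the CDC27 intron peak among K451R-only peaks of chromosomes 1 to 22 and X. It was also called in the K450R H3K9me2 list at a fold of 6.97, in the K450RK451R V5 list at 11.1 and in the EHMT1 list at 11.9. NOC4L, a ribosome biogenesis gene, had a fold of 12.3 at chr12:132634223-132634429, and AOPEP, an aminopeptidase gene, 11.7 at chr9:97700191-97700330. NOC4L was called in the K450R and K450RK451R H3K9me2 lists at 9.09 and 7.69, whereas AOPEP was called in neither and held V5 peaks of 9.41 in the K451R, 8.33 in the K450R and 12.4 in the K450RK451R line. Genes with more than a single K451R-only peak were 6 in all, and after ANKRD30BL and CDC27 they were BAHCC1 (a chromatin reader), MCCC1 (leucine breakdown), MICAL3 (actin oxidation) and ZNF717, with 2 each and no WT-line peak. The BAHCC1 folds were 7.42 and 5.24, the MCCC1 folds 4.62 and 4.598 and the MICAL3 folds 7.89 and 10.1. In each of these 3 genes both peaks lay in the same intron. The summit windows of the UBTD1 and AOPEP peaks held an Alu-type string. Of 151 stretches of read length, 47 were unique in the UBTD1 window, 79 in AOPEP and 95 in NOC4L. In the MCCC1 windows 74 and 0 were unique, in BAHCC1 146 and 106, and in MICAL3 87 and 101. Reads from stretches that are not unique cannot be placed with certainty.

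The strongest WT-only peaks in coding genes included both mitochondrial-type peaks of PCBD2 and a peak each in SIN3B and ERC1. SIN3B, the scaffold of a histone deacetylase corepressor, held a WT-only peak at chr19:16985952-16986093 with a fold of 10.3, and V5 folds there were 12.02 in the WT line, 10.6 with K451R, 11.4 with K450R and 9.77 with K450RK451R. Occupancy by V5 at SIN3B was thus called in all 4 lines, whereas H3K9me2 was called in the WT line only. ERC1, a scaffold of the presynaptic zone, had a fold of 8.70 at chr12:1194383-1194515 and an EHMT1 peak of 7.89 but no V5 peak. The WT-only peak with the highest −log10 q was the chromosome 10 satellite window printed above, with a fold of 2.67 from a pileup of 144 reads over a background of 53.4. There, V5 folds were between 2.58 and 2.93 in all 4 lines, so that the absence of a K451R H3K9me2 peak concerned a region of low fold and many reads.

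Most shared H3K9me2 peaks lay under V5 peaks of the same line, and most K451R-only peaks did not. A K451R V5 peak overlapped 129 of 580 K451R-only peaks (22.2%, 19.0 to 25.8) and 581 of 676 shared K451R-line peaks (85.9%, 83.1 to 88.4). With the K451R list shortened to its 784 peaks of highest −log10 p, the K451R-only share was 82 of 196 (41.8%, 35.2 to 48.8). For comparison, 5.24% of the 15779 merged regions of the 9 lists held a K451R V5 peak and 3.89% a WT V5 peak. The K450RK451R V5 list gave 14799 of the 22458 peaks behind these regions. These shares therefore rest mostly on sites of that list and are not a baseline for H3K9me2 peaks. A WT V5 peak overlapped 57 of the K451R-only peaks (9.83%, 7.66 to 12.5) and 502 of the shared K451R-line peaks (74.3%, 70.8 to 77.4). In the WT list, a WT V5 peak overlapped 26 of 92 WT-only peaks (28.3%, 20.1 to 38.2) and 515 of 692 shared peaks (74.4%, 71.0 to 77.5). Without the peaks of mitochondrial sequence the WT-only share was 11 of 75 (14.7%, 8.39 to 24.4). It was 16 of 33 (48.5%, 32.5 to 64.8) with a −log10 q of at least 10 in all lists and 46 of 102 (45.1%, 35.8 to 54.8) with a fold of at least 5. The V5 lists also differ in depth, with 14.1 M estimated reads behind the K451R list of 860 peaks and 8.84 M behind the WT list of 652, so that depth and line cannot be told apart.

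**Figure D5:**
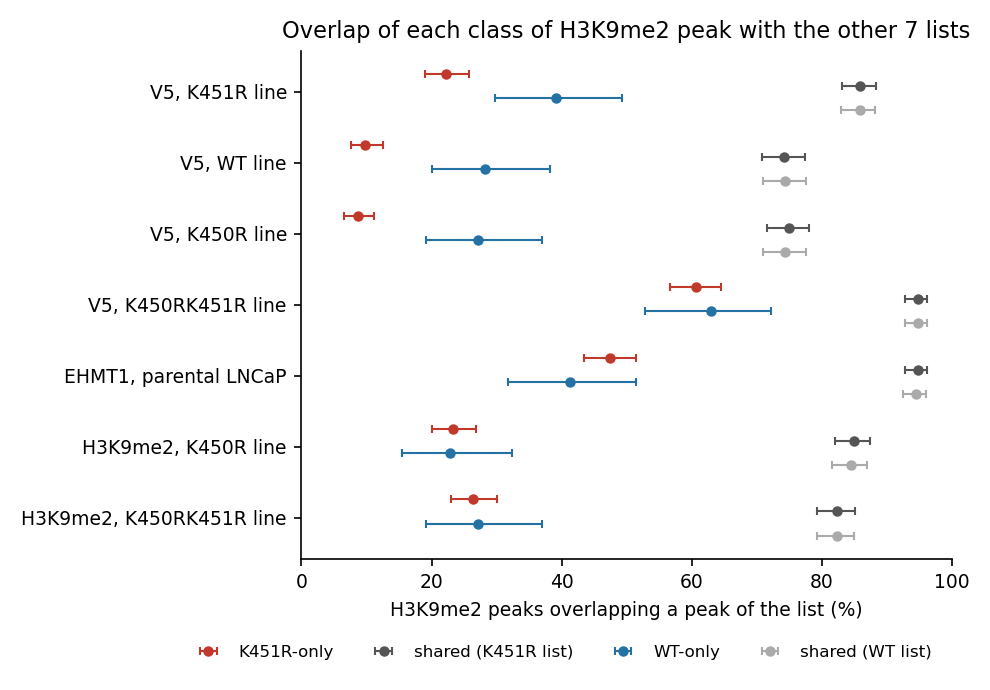
Share of H3K9me2 peaks (x axis, %) that overlapped a peak of each of the other 7 lists (y axis), for K451R-only (red), shared (K451R list, dark grey), WT-only (blue) and shared (WT list, light grey) peaks; points are shares and lines 95% Wilson intervals. Shared peaks overlap every list at 74.3% to 94.8%, and the line-only classes lie below them for every list.

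Where V5 and H3K9me2 peaks of a line coincided, the median H3K9me2 fold was the higher. In K451R-only peaks it was 5.86 (interquartile range 4.07 to 7.37) with a K451R V5 peak and 5.61 (4.21 to 6.64) without. The lower quartile there went the other way. In shared K451R-line peaks the medians were 7.24 and 6.26. With and without a WT V5 peak they were 6.78 and 5.70 in WT-only peaks and 7.82 and 6.46 in shared WT-line peaks. These differences were not tested. Neither V5 list covered 434 of the K451R-only peaks (74.8%), 40 lay under V5 peaks of both lines, 89 (15.3%, 12.6 to 18.5) under the K451R V5 list only and 17 (2.93%, 1.84 to 4.64) under the WT V5 list only. In shared K451R-line peaks the K451R V5 list alone covered a like share, 93 of 676 (13.8%, 11.4 to 16.6). The 5 strongest K451R-only peaks with K451R but no WT V5 were the CDC27 intron and exon 1 peaks, CDC27P1, AOPEP and an intergenic peak at chr7:61083782-61083907 with a fold of 6.32 for H3K9me2 and 8.31 for K451R V5.

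Seen from the V5 side, K451R-only H3K9me2 peaks were not limited to V5 sites of the K451R line. Of 272 K451R V5 peaks without a WT V5 peak, 88 (32.4%, 27.1 to 38.1) overlapped a K451R-only H3K9me2 peak. Of 54 WT V5 peaks without a K451R V5 peak 18 did so (33.3%, 22.2 to 46.6), and of 588 K451R V5 peaks with a WT V5 peak 41 did (6.97%, 5.18 to 9.32). V5 peaks called in a single line thus met K451R-only H3K9me2 peaks at similar shares whichever line they came from, with an interval for the WT line that spans both values. The median fold of these V5 peaks was 6.39 and 6.55 for K451R and WT, against 7.57 for K451R V5 peaks found in both lists.

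The other lines showed whether a K451R-only peak was seen elsewhere. In the K450R H3K9me2 list 135 of the 580 (23.3%, 20.02 to 26.9) were called, in the K450RK451R H3K9me2 list 153 (26.4%, 22.96 to 30.1), and in either of them 212 (36.6%, 32.7 to 40.5). WT-only peaks were called in either of these lists at 38.0% (28.8 to 48.3), an interval that includes the K451R-only share, and shared K451R-line peaks at 91.6% (89.2 to 93.4). An EHMT1 peak of parental cells, which carry no mutant, covered 275 of the K451R-only peaks (47.4%, 43.4 to 51.5), and a K450RK451R V5 peak 352 (60.7%, 56.7 to 64.6), from a list of 14799 peaks. In none of the other 7 lists were 131 K451R-only peaks (22.6%, 19.4 to 26.2), and 25 of 92 WT-only peaks (27.2%, 19.1 to 37.04). By contrast 407 of 676 shared K451R-line peaks (60.2%, 56.5 to 63.8) were called in all 7, so that they were found with 3 antibodies and in parental cells.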

How the data were processed

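ChIP-seq of the 18 samples in 9 groups was performed by the authors on formaldehyde-fixed LNCaP cells with antibodies to V5, H3K9me2 and EHMT1. The 51-nt reads, sequenced from a single end, were aligned to hg19 before peak calling by MACS2, and the submitters' processing notes name FastQC 0.11.9, BWA 0.7.9a, SAMtools 1.2 and MACS2 2.1.0. For each peak the authors deposited a fold enrichment (a ratio with a pseudocount of 1), −log10 p and −log10 q (the minus logarithms of the p-value and q-value), a score that restates −log10 q and was not used further, and a summit.

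Pileup and background were solved from the deposited fold and −log10 p of each peak, with a solution for 100% of peaks. Backgrounds were the genome-wide value or multiples of what 1 read adds to a 10-kb window, as when a ChIP library is its own background, and no input control was analysed here. Reads were estimated as the genome-wide background times 2.7 Gb divided by a 100-bp extension, which the values imply and the methods do not state. The solver was tested on simulated data. All peaks lay inside the chromosomes of GRCh37, which was used for sequence with GENCODE 44 mapped to that build. Coordinates are 1-based, and no mitochondrial coordinates or sequence are given. Motif strings were searched on both strands in windows of 100 bp on either side of each summit and in windows every 2010 bp, and the Alu-type and satellite strings may overlap each other.

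Named peaks on chromosomes 1 to 22 and X were the 5 with the highest −log10 q among shared, K451R-only and WT-only peaks, among K451R-only peaks with K451R and no WT V5 peak, and among K451R-only and WT-only peaks in coding genes, the 3 with the highest and the 3 with the lowest fold ratio, the 5 genes with most K451R-only peaks, the peaks nearest the overlap rule and EHMT1. A named peak and several summit sequences are not reported here. The members and gene lists were chosen with earlier results of these data known. Alternatives were other peak cutoffs, overlap rules, list lengths, depth, chromosomes and mappability. Computations used pysam 0.24.0, numba 0.67.0, pandas 2.3.3, numpy 2.4.6 and scipy 1.17.1 in Python 3.11.15.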

Additional observations from a re-analysis of the deposited data

How the results depend on the processing

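The 10 results were recomputed under 10 alternatives chosen at the start and under 3 added after the data were seen (removal of mitochondrial sequence for each of the 10 results, and another measure of enrichment for the fold ratio alone). Of 68 values for the results on which the comparison turns, 53 stayed within the counting interval of the reported value, or within 1.5 times for the peak ratio. A change of direction was scored for the median fold ratio of shared peaks only, and the K451R line stayed the lower in every setting. No setting split the pairs by distance from a gap. With a −log10 q of at least 5 in all lists, 90.9% of WT-line peaks overlapped K451R-line peaks. With at least 10, the shares were 94.0% for WT-line and 61.7% for K451R-line peaks, and among K451R-only peaks 28.3% had a K451R V5 peak and 31.8% were called in another mutant line. With a fold of at least 5 the WT-line share was 82.2% and the median fold ratio of shared peaks 0.962. With the K451R list shortened to the 784 peaks of the WT list, the peak ratio was 1.00 by construction, the shared shares were 75% of K451R-line and 77.2% of WT-line peaks, and 41.8% of the 196 K451R-only peaks had a K451R V5 peak and 52.0% were called in another mutant line. Reciprocal overlap of 50% gave 49.5% and 79.3% for the shared shares. Without the pseudocount the median enrichment ratio of shared peaks was 0.856. Scaling the K451R list to the WT reads changed the peak ratio to 1.52 and left the K451R V5 share of K451R-only peaks at 23.8%. Of the 44 values for the remaining results 37 stayed within the interval. Among the others, the WT V5 share of WT-only peaks ran from 14.7% without mitochondrial sequence to 48.5% at the cutoff of 10. The cause of these shifts was not tested, except where the alternative fixes the number of peaks.

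No paired analysis was possible because a single peak list per group was analysed, so replicate numbers could not be used, and leaving out a replicate could not be run for the same reason. Depth limits the comparison, since the lists with more and fewer reads are those of different lines, and reads estimated from the background do not say how they were divided between replicates.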
